A study of Mus musculus with 31 samples.

Results

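The 4 libraries described here are the H3K4me3 ChIP-seq libraries of mouse hippocampus with the longest lists of peaks. They were selected on list length alone, as the H3K4me3 lists with more than 10000 rows, and they are 4 of the 31 libraries of the series and 4 of its 16 H3K4me3 libraries. Their lists held 13343 to 16750 peaks, and the longest list left out held 2281. Each came from a different group: KMT2D+/+ (wild type) given vehicle, replicate 3; KMT2D+/bGeo (heterozygote) given vehicle, replicate 2; wild type given TAK-418, replicate 3; and heterozygote given TAK-418, replicate 3. Values of the 4 libraries are given in that order throughout. The mice were of strain C57BL6 and 30 days old. The heterozygotes carry the bGeo allele at 1 copy of Kmt2d and a wild type copy. TAK-418, an inhibitor of the demethylase LSD1, was given by gavage at 1 mg/kg/day for 2 weeks, and the vehicle was methylcellulose. With 1 library per group, differences between the 4 libraries cannot be assigned to genotype or treatment, and no comparison of groups was made. Chromatin came from hippocampal tissue and not from sorted cells, so a peak has no cell of origin in these data, and fewer cells of a type and less of the mark per cell cannot be told apart.

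Trimethylation of lysine 4 on histone H3 sits at the starts of genes that are transcribed or ready to be transcribed. It is laid down by complexes of the SET1 and MLL (KMT2) families, which include subunits that bind unmethylated CpG dinucleotides, and it is removed by KDM5 demethylases. LSD1, encoded by Kdm1a, removes the mono- and dimethylated forms. In brain, genes used by every cell and genes that define neurons both carry the mark, and genes that define a cell type can carry it over a long stretch.

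The lists held no read counts, so the depth of each library is unknown. The 16 H3K4me3 libraries stood far apart in list length, and the 4 long lists differed among themselves too, with 13343, 16390, 16750 and 16167 peaks. Before any result, 138 recurrent regions were left out, namely merged regions that 8 or more libraries of each mark had called. Fold enrichment there reached 5213.9 to 17110.1 in the 4 libraries, against at most 46.3 elsewhere. This left 13166, 16219, 16511 and 15955 peaks on chromosomes 1 to 19, X and Y. The lowest fold enrichment listed was 3.30, 2.70, 3.04 and 3.60, so the lists did not start from the same value.

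Kmt2d and Kdm1a, the gene altered in the heterozygotes and the gene of the drug's target, both had a peak at the start in all 4 libraries. The peaks at Kmt2d (chr15:98831669-98874077) had fold enrichments of 6.41, 5.24, 7.36 and 7.11 and widths of 3630, 3221, 3535 and 3559 bp. Those at Kdm1a (chr4:136550533-136602787) had fold enrichments of 7.91, 6.44, 10.7 and 7.86 and widths of 1412, 773, 1348 and 905 bp. Fold enrichment is the authors' value for a peak, a linear ratio over background. The peak at Kmt2d does not check the genotype, since a wild type copy is present in every mouse.

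The promoters of 4 genes are printed as examples, and Irs2 and Tbx20 were chosen partly for their CpG content. Irs2 was the most CpG-rich among the genes of the 10 widest shared regions. Tbx20 was the first CpG-rich regulator of another lineage without a peak in any library. Slc17a7 and Alb were the first of their lists with a peak in all 4 and in none. Each line gives the 250 bases before the start, 5′ to 3′ on the strand of the gene, from RefSeq on GRCm38.p6 (mm10), with every CpG in capitals. Irs2 (insulin receptor substrate, chr8:11008930-11009179, minus strand) lies at a shared region among the 10 widest and had 34 CpGs. Slc17a7 (vesicular glutamate transporter 1, chr7:45163671-45163920, plus strand) had a peak in all 4 libraries and 9 CpGs. Tbx20 (a heart transcription factor, chr9:24774304-24774553, minus strand) had no peak in any of the 4 and 22 CpGs. Alb (albumin, the main plasma protein made by liver, chr5:90460620-90460869, plus strand) had no peak in any of the 4 and 2 CpGs.
Irs2: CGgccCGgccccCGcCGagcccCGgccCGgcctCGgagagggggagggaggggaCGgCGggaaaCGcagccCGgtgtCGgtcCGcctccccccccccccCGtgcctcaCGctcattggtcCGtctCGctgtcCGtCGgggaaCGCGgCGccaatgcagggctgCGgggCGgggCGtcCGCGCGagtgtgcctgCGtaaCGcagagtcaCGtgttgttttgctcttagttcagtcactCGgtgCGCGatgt
Slc17a7: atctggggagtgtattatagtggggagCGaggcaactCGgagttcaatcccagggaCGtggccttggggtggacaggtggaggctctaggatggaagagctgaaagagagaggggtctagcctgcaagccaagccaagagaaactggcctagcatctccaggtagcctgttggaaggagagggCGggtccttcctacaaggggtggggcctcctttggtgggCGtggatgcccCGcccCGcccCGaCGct
Tbx20: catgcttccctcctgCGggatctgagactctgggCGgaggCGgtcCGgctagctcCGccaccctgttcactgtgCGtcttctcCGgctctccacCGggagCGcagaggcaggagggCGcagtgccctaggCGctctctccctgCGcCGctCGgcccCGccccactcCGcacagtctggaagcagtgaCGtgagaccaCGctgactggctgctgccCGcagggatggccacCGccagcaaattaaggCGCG
Alb: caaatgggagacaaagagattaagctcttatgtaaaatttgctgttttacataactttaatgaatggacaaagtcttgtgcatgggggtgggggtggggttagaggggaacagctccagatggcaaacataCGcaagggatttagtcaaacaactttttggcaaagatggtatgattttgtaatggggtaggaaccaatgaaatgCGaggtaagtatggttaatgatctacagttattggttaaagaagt

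The 4 lists shared 11435 regions, and 90.3% of these lay at the start of a protein-coding gene. Peaks that overlapped by 1 bp or more were merged into 22452 regions, of which 11435 (50.9%) held a peak from all 4 libraries, 1573 from 3, 1484 from 2 and 7960 (35.5%) from 1. The share at a protein-coding start, meaning within 2 kb of it, was higher the more libraries held the region, from 12.9% of regions in 1 library to 49.1%, 68.4% and 90.3% of those in 2, 3 and 4. Regions in a single library were low: their median fold enrichment was 3.30, 2.70, 3.11 and 3.82 in the respective library, at or near the lowest value in its list, against 5.51, 4.37, 6.61 and 6.23 for the shared regions. They were also uneven between libraries, with 418, 3211, 2285 and 2046. Of the regions of each library, 87.7%, 71.1%, 69.7% and 72.1% were shared by all 4. Of the shared regions away from coding starts, 443 lay at the start of another kind of gene, 484 inside a protein-coding gene and 187 elsewhere.

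A shared region had a median width of 1057 bp and a median fold enrichment of 5.77, each taken as the median over the 4 libraries. From the 10th to the 90th percentile, widths ran from 602.5 to 1997 bp and fold enrichments from 4.25 to 7.23, so width varied more than fold enrichment. Library medians over the shared regions were 935, 996, 1172 and 1150 bp. Across the 11435 regions, ranks by width were closer between libraries, with Spearman's rho of 0.674 to 0.759 over the 6 pairs, than ranks by fold enrichment, with 0.473 to 0.592. Within a library the 2 measures were nearly unrelated, with rho between 0.0553 and 0.204. These are descriptions over regions, which are not replicates.

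Around the start, the mark lay mostly downstream. Over the 17491 genes with a start in the promoter table, the share covered by a peak was highest 100 or 200 bp downstream of the start, at 49.5%, 49.3%, 54.7% and 53.8%. It was 0.926% to 1.34% at 2 kb upstream and 1.98% to 3.60% at 2 kb downstream. Among the 9148 of these genes marked in all 4 libraries, the peak covered the start itself at 79.7%, 82.1%, 89.2% and 85.9%. Where it did, it reached a median of 325 to 399 bp upstream and 647 to 759.5 bp downstream, and 76.3% to 78.6% of these peaks extended farther downstream than upstream.

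**Figure D1:**
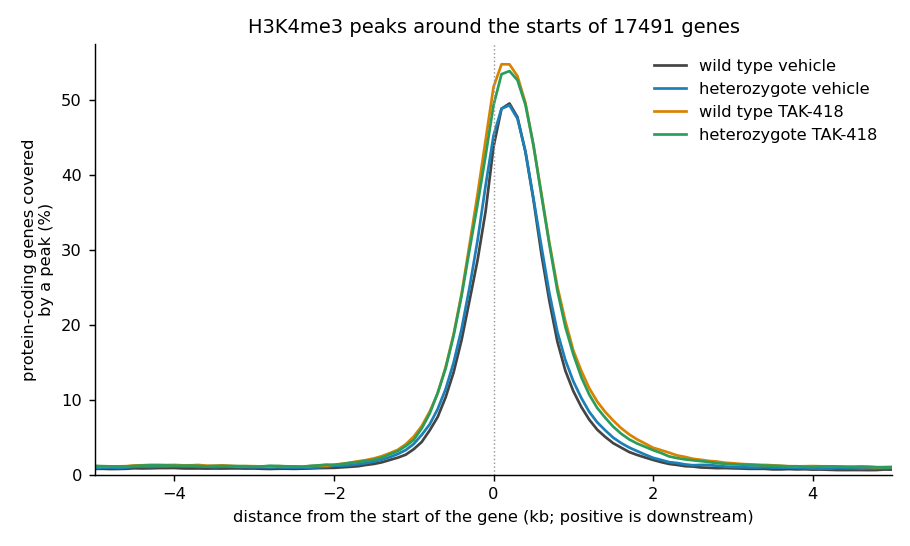
Share of 17491 protein-coding genes covered by an H3K4me3 peak (percent, y axis) against distance from the start (kb, positive downstream), 1 line for each of the 4 libraries. All 4 lines peak just downstream of the start, between 49.3% and 54.7%, and fall below 4% at 2 kb on either side.

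Of 21883 protein-coding genes, 11332 (51.8%) had a peak within 2 kb of the start in all 4 libraries, 8134 (37.2%) had none in any, and 2417 (11%) had one in 1 to 3. A gene is called marked here when it has such a peak. Each library marked 12122, 12299, 13167 and 12927 genes, or 55.4% to 60.2%. These shares are the background for the gene lists below. A peak within 2 kb need not belong to the gene named: for 2490 of the 11332 genes (22%), every shared region at the start also lay at the start of another protein-coding gene. In the other direction, 368 of the 8134 unmarked genes (4.52%) held a shared region farther inside the gene.

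Genes of the general machinery of the cell were mostly marked in all 4 libraries. All 35 splicing genes carried a peak in all 4 libraries, as did 71 of 80 genes for ribosomal proteins, 63 of 71 translation factors, 34 of 40 proteasome subunits and 72 of 87 subunits of the respiratory chain. Srsf6, which encodes a splicing regulator, had fold enrichments of 8.15, 5.01, 8.20 and 8.54. Rpl5, a protein of the large ribosomal subunit, had 6.66, 5.85, 8.96 and 10.5. Psmc2, an ATPase of the proteasome cap, had 8.34, 7.21, 8.95 and 7.50, at a region that also holds the start of Dnajc2. At all 3 genes the heterozygote vehicle library was the lowest. The members without a peak in any library included variants known from testis, muscle or thymus: Rpl10l (testis) and Rpl3l (muscle) among 3 ribosomal genes, both proteasome genes, Psma8 (testis) and Psmb11 (thymus), and Cox6a2 and Cox7a1 (muscle) among 9 respiratory genes.

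**Figure D2:**
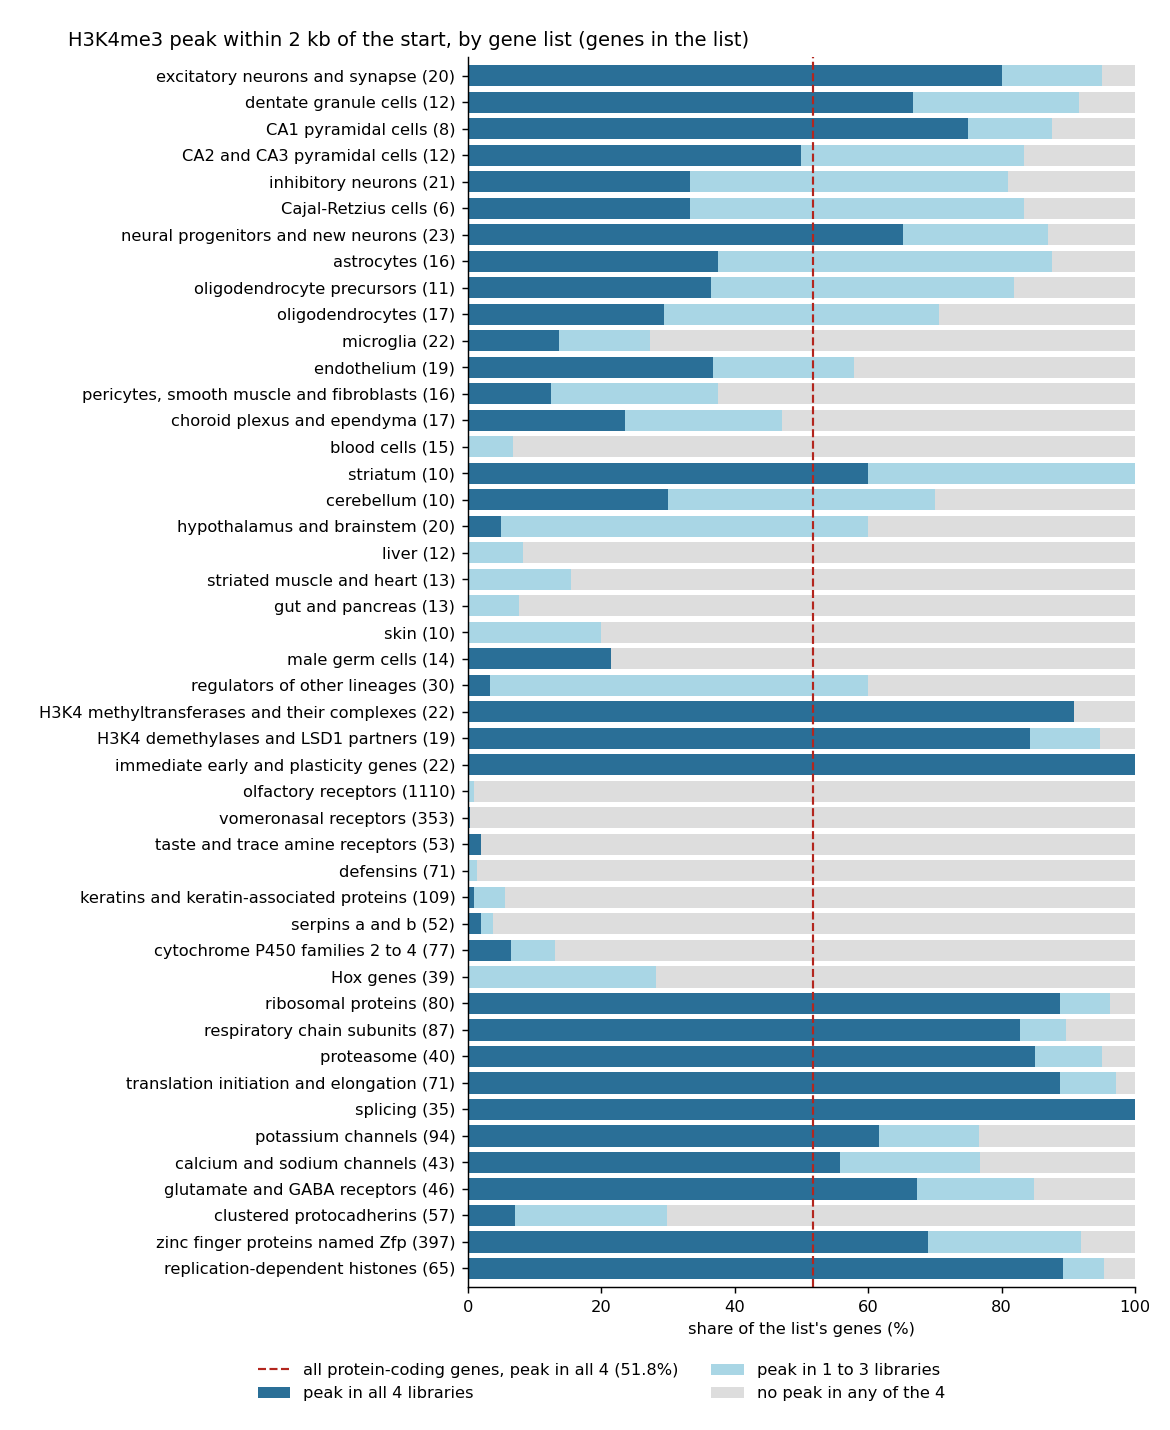
Share of the genes of each list (percent, x axis) with an H3K4me3 peak within 2 kb of the start in all 4 libraries (dark), in 1 to 3 (light) or in none (grey), with the number of genes in parentheses and a dashed line at 51.8%, the share of all protein-coding genes marked in all 4. Splicing and immediate early genes reach 100%, and liver, muscle, gut, skin and blood genes have 0 marked in all 4.

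Excitatory, dentate granule and CA1 genes were marked in all 4 libraries at a higher share than all genes, and CA2 and CA3 genes at a share close to it. These counts do not check the hippocampal label against other forebrain, since 6 of 10 striatal markers were marked in all 4 as well. Of 20 genes of excitatory neurons and their synapses, 16 were marked in all 4 libraries and 1 in none. Slc17a7 had fold enrichments of 3.66, 2.86, 3.39 and 4.19, near the lowest values listed. Homer1, a scaffold of the postsynaptic density, had 7.05, 4.88, 6.73 and 7.32, and Shank3, another such scaffold, had 5.06, 4.33, 7.68 and 6.62. Rbfox3 (NeuN) was without a peak at its listed start but held a shared region inside the gene. Of the genes that mark dentate granule cells, 8 of 12 were marked in all 4, among them C1ql3, a secreted synaptic protein, at 5.25, 5.26, 6.49 and 5.94. The lists for CA1 and for CA2 and CA3 pyramidal cells had 6 of 8 and 6 of 12. Amigo2, a cell adhesion gene of CA2, had 6.08, 4.81, 11.4 and 8.15, at a region that also holds the start of Pced1b. Iyd and Prss35, used as markers of CA3, had no peak in any library.

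Genes of inhibitory neurons were marked less evenly: 7 of 21 in all 4 libraries, 10 in 1 to 3 and 4 in none. Reln, a secreted protein of Cajal-Retzius cells and some interneurons, had 4.40, 3.39, 7.38 and 4.86. The neuropeptide genes Sst and Vip, the serotonin receptor gene Htr3a and Calb2 had no peak in any. Pvalb, the calcium-binding protein of fast-spiking cells, had a peak in 1 library only, at 5.85 in heterozygote TAK-418. Gad2 and Dlx1 were marked in 3. Progenitors and newborn neurons had 15 of 23 marked in all 4. Lhx2, a transcription factor of the cortex and hippocampal primordium, had 5.68, 6.11, 7.71 and 5.37. Its widths were uneven between libraries, at 1776, 1656, 7144 and 7203 bp. Dcx, Fabp7 and Neurod4 had no peak in any.

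Glial and endothelial genes were marked in all 4 at lower shares than all genes, and genes of microglia and of mural cells were mostly unmarked. The promoters of these lists were also poorer in CpG than those of the excitatory list, as given below, and the shares are not matched for that. The share with no peak in any was 12.5% for astrocytes, 18.2% for oligodendrocyte precursors and 29.4% for oligodendrocytes, below the 37.2% of all genes. For endothelium it was 42.1%. Of 16 astrocyte genes 6 were marked in all 4 and 8 in 1 to 3. Atp1b2, a subunit of the sodium pump, had 8.09, 5.02, 8.29 and 8.96, and Glul, glutamine synthetase, had 7.58, 5.62, 7.54 and 7.71, whereas Gfap had a peak in 1 library at 3.04 and Aqp4 in none. Astrocyte genes were found in 6, 7, 12 and 12 of 16 in the 4 libraries. Of 17 oligodendrocyte genes 5 were marked in all 4, led by Tspan2, a tetraspanin gene, at 6.02, 3.11, 7.66 and 6.05, and by the myelin gene Mbp, and Mog and Opalin had none. The precursor list had 4 of 11, with Olig1 at 5.13, 4.58, 4.76 and 5.26. Endothelium had 7 of 19, led by the glucose transporter gene Slc2a1 at 6.70, 5.88, 6.55 and 6.11, while Pecam1 and Cdh5 had none. Of 16 genes of pericytes, smooth muscle and fibroblasts 2 were marked in all 4 and 10 in none. Of 22 microglial genes 3 were marked in all 4 and 16 in none. Cx3cr1, P2ry12, Aif1 and Itgam had no peak in any.

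Genes of unrelated tissues were largely without the mark, whereas those of other brain regions were often marked in some libraries. Of 15 blood genes, 14 had no peak in any library, including the globin genes Hbb-bs and Hba-a1. Choroid plexus and ependyma had 4 of 17 in all 4, with Foxj1, a regulator of cilia, at 6.02, 3.27, 5.53 and 5.50, and Ttr, a major product of choroid plexus, at none. Of 10 striatal markers 6 were marked in all 4 and the other 4 in 1 to 3. Of 10 cerebellar markers 3 were marked in all 4, 4 in 1 to 3 and 3 in none. The list for hypothalamus and brainstem had 11 of 20 in 1 to 3, 8 in none and 1 in all 4: Agrp, whose region also holds the start of Atp6v0d1. That list had a peak at 3, 2, 11 and 4 of its 20 genes, so most of its partial marks came from the wild type TAK-418 library. No member of the liver (12), muscle and heart (13), gut and pancreas (13) or skin (10) lists was marked in all 4. Of 14 genes of male germ cells 3 were, and 11 had no peak in any: Dazl had 5.37, 3.81, 6.34 and 4.41, and Zpbp shares its region with Spata48.

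The unmarked genes included whole families. Of 1110 olfactory receptor genes 1100 had no peak in any library, and of 353 vomeronasal receptor genes 352 had none. Sensory receptors, including taste and trace amine receptors, made up 1504 (18.5%) of the 8134 unmarked genes. Of all 1516 such receptor genes 99.2% were unmarked, against 37.2% of all protein-coding genes. Defensins had 70 of 71 unmarked, keratins and their associated proteins 103 of 109, serpins of clades a and b 50 of 52, and cytochromes P450 of families 2 to 4 67 of 77. Many of these genes have near-identical copies, and how reads that match several places were treated is not given in the sources used here. Some of the exceptions lie at a neighbour's start: the region at Tas1r1 also holds Nol9, and that at Krt222 also holds Smarce1. Olfr94, the olfactory receptor gene marked in all 4, had low values of 4.06, 3.38, 5.35 and 3.96.

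Of 30 transcription factor genes that regulate other lineages 1 was marked in all 4 (Prrx1, at 4.60, 3.56, 5.03 and 5.17), 17 in 1 to 3 and 12 in none. They were found in 3, 9, 15 and 6 of the 30 by library, with the wild type TAK-418 library again the highest. Foxa1, a regulator of endoderm, had a peak in the heterozygote vehicle library at 3.07 and in the wild type TAK-418 library at 4.47. Twist1, a mesoderm regulator, had peaks in 3 libraries, at 3.21, 3.51 and 4.42. Gata1, Gata4, Nkx2-5 and Tbx5 had none. Of the 39 Hox genes, which pattern the body axis and are not used in forebrain, 0 were marked in all 4, 11 in 1 to 3 and 28 in none.

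The enzymes that write and erase this mark were themselves marked. Of 22 genes for H3K4 methyltransferases and their partners, 20 were marked in all 4, and the other 2, Ash2l and Ncoa6, held a shared region inside the gene. Kmt2c, the closest relative of Kmt2d, had 8.34, 4.85, 7.72 and 6.80. Cxxc1, the CpG-binding subunit of the SET1 complexes, had 7.89, 4.86, 7.68 and 7.74. Of 19 genes for H3K4 demethylases and LSD1 partners, 16 were marked in all 4. Kdm5b, an H3K4me3 demethylase, had 8.77, 6.37, 12.4 and 8.09, the highest of that list. Gfi1 and Gfi1b, blood transcription factors that recruit LSD1, had a peak in 2 libraries and in none, and Kdm5d, on chromosome Y, had a peak in 1. The heterozygote vehicle library was the lowest of the 4 at Kmt2d, Kdm1a, Kmt2c, Cxxc1 and Kdm5b. Its library median over all shared regions was also the lowest, at 4.37, so this is not particular to these genes.

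All 22 immediate early and plasticity genes, which neurons and other cells switch on within minutes of stimulation, carried the mark in all 4 libraries. Jun, a subunit of the AP-1 factor, had fold enrichments of 7.56, 4.79, 9.06 and 6.96 and widths of 3790, 3670, 3471 and 3826 bp. Fos, its partner, had 5.33, 3.60, 4.86 and 5.40 and widths of 1054, 4038, 3190 and 2830 bp, so the wild type vehicle peak was the narrowest. Arc, which acts at active synapses, had 4.04, 3.65, 4.74 and 4.63 and widths of 2377, 2472, 3296 and 2587 bp. Bdnf, a growth factor for neurons, had 4.83, 3.56, 5.24 and 4.80. Fos, Arc and Bdnf were picked for their familiarity after their values had been seen. The median over the list was 4.77 for fold enrichment and 2141 bp for width.

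Fold enrichment and width placed the lists in different corners. Over the 11332 genes marked in all 4, the median fold enrichment was 5.89 and the median width of the peak at the start 1100.5 bp. The housekeeping families had medians of 6.02 to 6.38 and 868 to 1148.5 bp, with fold enrichments above the median and widths on either side of it. The excitatory list was at 4.70 and 2165 bp, inhibitory neurons at 4.05 and 1856 bp, glutamate and GABA receptors at 5.01 and 1556.5 bp, and progenitors at 5.12 and 2259 bp, low and wide. On the ranks of all genes marked in all 4, the excitatory list lay at the 16.7th percentile of fold enrichment and the 92nd of width. The H3K4 methyltransferase list was high and wide at 6.40 and 1407 bp, and the demethylase list at 6.18 and 1703 bp. Zinc finger genes named Zfp were at 5.87 and 867.5 bp, a width close to that of the proteasome list. These neuronal peaks were low, and their counts depended on how weak a peak was accepted. With only peaks of −log10 q of at least 5, 12.9% of all protein-coding genes remained marked in all 4. The median −log10 q of the lists was 4.90, 2.96, 5.43 and 5.44, so this cut bore most on the heterozygote vehicle library. How far the shares that follow rest on that library was not tested. The share was 40% for splicing, 27.5% for ribosomal proteins and 45.5% for methyltransferases, but 9.09% for immediate early genes and 0% for excitatory neurons, so the excitatory and immediate early lists were then below the share of all genes.

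**Figure D3:**
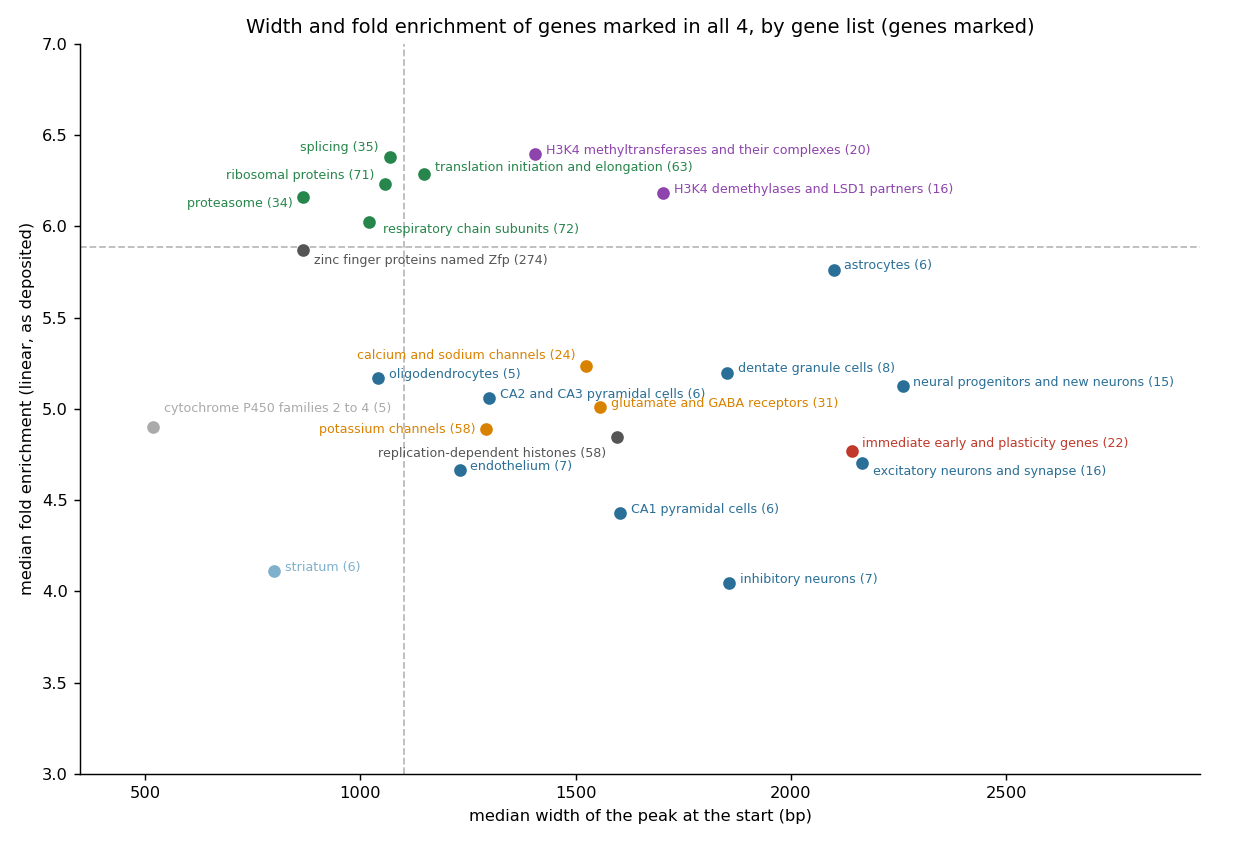
Median fold enrichment (linear ratio, y axis) against median width of the peak at the start (bp, x axis) for lists with at least 5 genes marked in all 4 libraries, with that number in parentheses and dashed lines at the medians of all 11332 such genes (5.89 and 1100.5 bp). Housekeeping families (green) lie above the line near 1000 bp, and excitatory and immediate early genes lie below it beyond 2000 bp.

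Ranked by the smallest summed width over the 4 libraries, the 10 widest lay at Tnrc18, Bahcc1, Irs2, Bcl11a, Nr4a3, Zfp608, Pcdh17, Pou3f3, Pcdh7 and Brd2. Peaks at Tnrc18 (chr5:142812503-142823092) summed to 8393, 8542, 10298 and 9231 bp, and those at Bahcc1, a chromatin protein gene, to 7891, 7171, 7727 and 7893 bp. Nr4a3 (chr4:48042477-48049026), an immediate early nuclear receptor, had 6032, 6017, 6550 and 6205 bp, and Bcl11a, a zinc finger repressor of neurons and blood, 6051, 6088, 6397 and 6427 bp. The wild type TAK-418 library was the widest at 6 of the 10, and the heterozygote vehicle library had the lowest fold enrichment at 10 of 10. In fold enrichment 8 of the 10 lay between the 37.1th and 49.9th percentile of shared regions, with Bahcc1 at the 77.3rd and Brd2, a BET bromodomain gene whose region also holds H2-DMa, at the 93.2nd.

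The highest shared regions belonged to other genes. The 10 highest at coding starts lay at Ier5, Fastkd5, Cab39, Nup205, Akirin2, Ppp4r3a, Ipo7, Cep350, Dnttip2 and 9930021J03Rik, with medians of 9.37 to 9.96. Ier5, an immediate early gene (chr1:155098009-155099648), had 9.12, 5.35, 11.1 and 10.8. Nup205, a nuclear pore subunit, had 8.30, 5.07, 10.7 and 10.9, and Ppp4r3a, a regulatory subunit of protein phosphatase 4, had 8.98, 7.43, 11.5 and 9.96. The heterozygote vehicle library was the lowest at 9 of the 10, Cep350 being the exception. Their widths lay between the 4.39th percentile of shared regions, at Dnttip2, and the 85.8th, at Ppp4r3a. No gene was in both sets of 10. Of the shared regions away from coding starts, 5 were higher than any at a coding start, with a maximum of 33.4. The maximum lay on chromosome 1, and the others on chromosomes 8 (20.2, 12.4 and 11.6) and 19 (12.1). Whether reads that match several places gave these values was not tested, so they are not read as the strongest sites of the mark.

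The CpG content of the promoter, a property of the reference sequence that played no part in choosing the libraries, tracked the mark closely. It is given as the CpG ratio, observed over expected, in the RefSeq window from 250 bases before to 50 after the start. The median ratio was 0.801 for the 9148 genes marked in all 4, 0.565 for the 1854 marked in 1 to 3 and 0.176 for the 6489 marked in none. Quartiles of the marked and unmarked genes did not overlap, at 0.650 to 0.934 and 0.0877 to 0.301. The share marked in all 4 was higher at each step of the ratio, from 4.45% under 0.2 to 16.7%, 50.9%, 80%, 91.1% and 95% at 1 or more. Gene lists differed in their median ratio, with 0.321 for astrocytes, 0.334 for oligodendrocytes, 0.302 for microglia, 0.253 for endothelium and 0.697 for the excitatory list. Inhibitory neurons (0.636) and regulators of other lineages (0.639) were marked in all 4 less often than all genes, at ratios near the excitatory one. By library, inhibitory genes were marked at 52.4%, 57.1%, 76.2% and 66.7%, against 55.4%, 56.2%, 60.2% and 59.1% of all genes. Whether list shares differ at equal CpG ratio was not tested. Among genes marked in all 4 the ratio bore little on fold enrichment or width, with Spearman's rho across genes of 0.234 and 0.180.

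**Figure D4:**
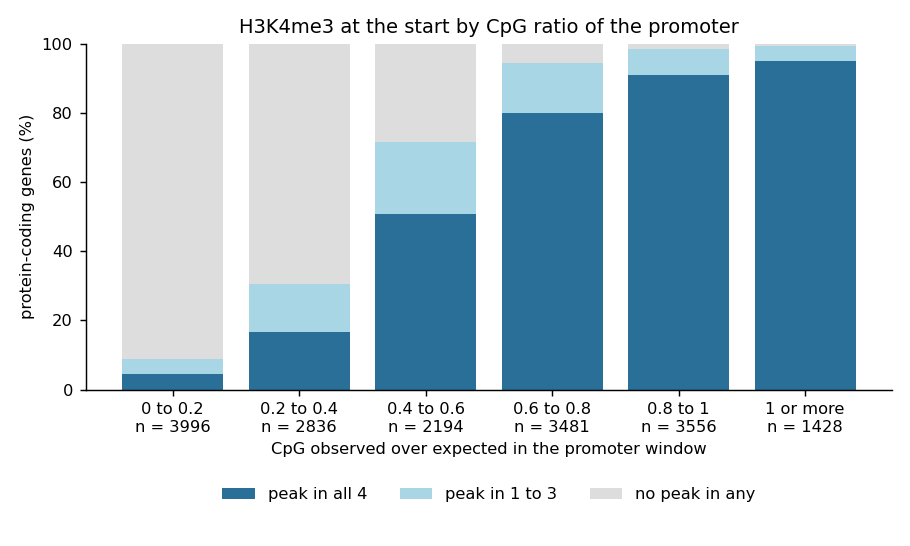
Share of protein-coding genes (percent, y axis) with an H3K4me3 peak at the start in all 4 libraries (dark), in 1 to 3 (light) or in none (grey), by the CpG ratio of the promoter window (x axis, n is the number of genes). The share in all 4 is 4.45% in the lowest bin and 95% in the highest.

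Motif letters were counted on both strands of the same windows. The GC box of SP factors (GGGCGG) was in 70% of promoters marked in all 4 and 11.4% of those marked in none, with 46.3% over all promoters. The TATA box letters (TATAAA) went the other way, in 6.11% and 24.8%, with 13.3% over all. The ETS letters (CCGGAAGT) were in 8.80% and 0.878%, with 5.28% over all, and those of YY1 (AAGATGGCG) in 3.29% and 0.108%, with 1.92% over all. CCAAT, which holds no CpG, was at similar shares of 38.1% and 39.9%, with 39.2% over all. Among promoters with a CpG ratio of at least 0.6, the GC box was in 75.8% of those marked in all 4 and 41.7% of those marked in none, and TATAAA in 5.35% and 13.8%. There the E-box (CACGTG) was in 11.4% and 15.4%, the reverse of its 10.6% and 4.04% over all CpG ratios, with 7.91% of all promoters. The NRF1 letters (GCATGCGC) were in 6.84% and 5.12% there, against 5.98% and 0.616% over all CpG ratios, with 3.60% of all promoters. The CRE letters (TGACGTCA) were in 3.98% and 2.76% there, against 3.45% and 0.663%, with 2.33% of all promoters. Among these CpG-rich promoters the ETS letters were in 9.81% and 3.94%, the YY1 letters in 3.81% and 0.787%, and CCAAT in 37.1% and 42.9%. These are matches of letters, not binding sites.

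Exceptions to the CpG pattern ran both ways. With a ratio of at least 0.6, 254 genes had no peak in any of the 4 libraries. Of these, 31 were members of the gene lists, 9 of them in the developmental lists. The 31 included Tbx20, Barx1, Evx1 and the Hox genes Hoxa5 and Hoxb8, the peptide genes Sst, Trh and Pomc, and the germ cell genes Ddx4, Sycp1 and Sycp3. They do not stand for the 254, most of which were in no list, such as Cul4b, Atp7a and Pfdn4. The Pomc gene held a shared region inside it. With a ratio under 0.2, 178 genes were marked in all 4. They included Mef2c, a transcription factor of excitatory neurons, at 3.97, 3.31, 3.97 and 5.35, Cdkn1a, a cell cycle inhibitor, at 3.89, 2.70, 5.13 and 5.32, and Dpy30, a core subunit of the methyltransferase complexes, at 6.60, 6.54, 7.15 and 7.92. The table gives 1 window per gene, so a gene with several starts is represented by one of them. Barx1, Evx1, Hoxb8, Ddx4, Sycp1, Sycp3, Cul4b, Atp7a, Pfdn4, Mef2c and Dpy30 were picked after their values had been seen.

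Genes that do not encode proteins were marked less often. Of 12727 long noncoding RNA genes 14.2% were marked in all 4, and 332 had a shared region away from any coding start. Of 408 tRNA genes 28.9% were marked in all 4, and 81 had such a region, though tRNA genes are repeated and cluster. Of 1005 microRNA hairpins, 154 had a peak within 2 kb of their 5′ end in all 4 libraries, 43 of them away from coding starts. All 3 genes of miR-9, a microRNA of neural progenitors and neurons, were among these 43. Mir9-1 (chr3:88215598-88215686) had 6.32, 3.96, 6.29 and 6.69, Mir9-2 (chr13:83738814-83738885) had 3.50, 3.28, 3.25 and 4.41, and Mir9-3 (chr7:79505264-79505353) had 5.28, 6.04, 6.34 and 5.47. Mirlet7i (chr10:122985640-122985724), of the let-7 family, had 6.39, 4.71, 7.81 and 8.81, and Mir137 (chr3:118433857-118433929), a microRNA of neurons, had 3.68, 3.05, 3.83 and 3.96. These were picked after their values had been seen. Their mature forms, from RefSeq on GRCm38.p6 with the seed (bases 2 to 8) in capitals, have 3 different seeds, and the 3 miR-9 genes give the same one.
miR-9-5p: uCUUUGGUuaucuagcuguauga
let-7i-5p: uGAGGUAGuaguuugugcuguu
miR-137-3p: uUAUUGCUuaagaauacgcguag

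Chromosome X stood below the autosomes. Of its 966 protein-coding genes 25.5% were marked in all 4 and 55.1% in none, whereas the autosomes ran from 41.1% (chromosome 7) to 63.8% (chromosome 12) marked in all 4. By library, 32.9%, 32.2%, 40.7% and 37.7% of X genes were marked, against 57.1%, 58%, 61.8% and 60.8% of autosomal genes. Median fold enrichment at marked X genes was 4.17, 3.34, 4.35 and 4.52, against 5.57, 4.38, 6.47 and 6.24 on autosomes, lower in each library. The sex of the mice was not given in the sources used here. Of 256 genes on chromosome Y, 0 were marked in all 4.

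The shared regions were then looked up in the 27 libraries that did not define them. In the 12 other H3K4me3 libraries, 3.45% to 95.3% of the peaks outside recurrent regions overlapped a shared region, with a median of 40.4%. Libraries with more peaks were not always higher: the 3 highest shares, 95.3%, 90.2% and 80.3%, came with 592, 2010 and 1471 peaks. Each of these libraries found 4 to 1808 of the 11435 shared regions. The ones found were high and wide in the 4 long lists. Their median percentile among shared regions was 66.5 to 87.0 for fold enrichment and 51.1 to 77.6 for width, above 50 in 12 of 12 libraries for both. The 8251 shared regions found by no other H3K4me3 library had a median width of 954.5 bp, and the 741 found by 2 or 3 had 1674 bp. Arid1a, a subunit of a chromatin remodelling complex, and Eef2, the elongation factor of translation, lay among the 32 regions found by at least 4, with 5 libraries each, and were named after their values had been seen. In the H3K4me1 libraries, a mark of enhancers and promoter flanks, 0% to 10.9% of such peaks overlapped a shared region in the 14 with any. These libraries had at most 183 such peaks and found at most 15 shared regions each. Among H3K4me3 libraries of like size, the library with 116 such peaks was at 3.45%. Those with 95 and 128 were at 38.9% and 71.9%, and those with 166 at 33.1% and 41.6%. Whether the marks differ at equal list length was not tested. All of these libraries belong to the same study, so this is not an outside check.

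**Figure D5:**
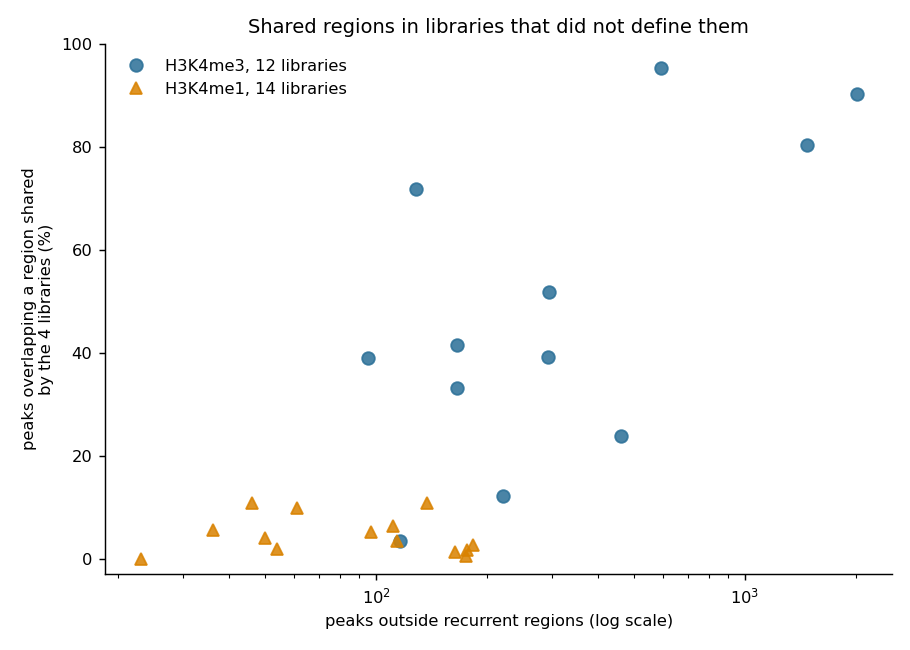
Share of peaks that overlap a region shared by the 4 long lists (percent, y axis) against the number of peaks outside recurrent regions (log scale, x axis), 1 point for each library that did not define the regions. The 12 H3K4me3 libraries (circles) run from 3.45% to 95.3%, and the 14 H3K4me1 libraries with any such peak (triangles) lie at 10.9% or below.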

How the data were processed

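Per the labels' protocols, hippocampal chromatin was sonicated and immunoprecipitated with an Abcam antibody against H3K4me3 or H3K4me1, and libraries were made with a NEBNext Ultra II kit. The deposited lists, 1 per library, have the layout of MACS2 broad peaks. Per the submitters' processing notes, mm10, MACS2, MACS and bedtools were used, with no version or role; the aligner, the control and the threshold are not given in the sources used here. Column 7 of the deposited lists is the authors' fold enrichment (a linear ratio), and columns 8 and 9 are the authors' −log10 p-value and −log10 q-value of a peak. The lists hold no counts, so depth and the precision of a peak are unknown. The authors' lists of differential regions were not used.

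Computed here, with Python 3.11.15, pandas 2.3.3, numpy 2.4.6, scipy 1.17.1 and matplotlib 3.10.9: peaks on chromosomes 1 to 19, X and Y outside 138 recurrent regions were merged where they overlapped by 1 bp or more. In a region, a library's fold enrichment is its highest peak and its width the sum of its peaks; at a gene, width is that of its widest peak. RefSeq starts came from the promoter table for 17491 protein-coding genes, and either end was used for the other 4392. No test was made, since each group has 1 library; where several values are compared they are medians or shares, and the spread given is over libraries. The code that assigns peaks to genes was run on simulated peaks, where 200 of 200 planted genes among 21883 were recovered. The peaks were planted inside the 2 kb window, so this checks the code only. It does not measure how often a peak belongs to a neighbouring gene. Alternatives were the strictness and length of the lists, each library left out, recurrent regions kept, the overlap, and the distance to a start; 2 alternatives (recurrent stretches by base, and genes with a known start only) were added after seeing the data.

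The libraries and the 27 gene lists and 19 symbol families were chosen with earlier results of these data known. Genes named are Kmt2d and Kdm1a, those of the 4 printed promoters, and those at the 10 highest and the 10 widest shared regions. Also named are the 2 highest of each list among those marked in all 4. So are up to 4 unmarked members per list and partly marked members. Others are said to have been picked after their values were seen. Values of some list members are not reported here.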

Additional observations from a re-analysis of the deposited data

Results flagged for a closer look

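Of the 7 groups of 4 libraries examined, 4 were H3K4me3 groups. In each of these, the longest list lay apart from the other 3 by the gap between the longest and the next, as a share of the whole range, above the 95% critical value of Dixon's test for 4 values (0.829). These are the libraries described above, selected on that measure, so the outcome was fixed by the choice and is a description, not a test. The number of peaks was 13343 in wild type vehicle, 16390 in heterozygote vehicle, 16750 in wild type TAK-418 and 16167 in heterozygote TAK-418. In groups not chosen this way, chance places about 1 in 20 beyond this value.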

How the results depend on the processing

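Accepting only peaks with −log10 q of at least 5 left 2578 of the 11435 shared regions and 2830 of the 11332 genes marked in all 4, by its construction of fewer peaks, and moved the median fold enrichment to 6.86 and the median width to 1222.5 bp. That cut bore most on the heterozygote vehicle library, whose median −log10 q was 2.96. Requiring each library to cover at least 50% of a merged region left 7262 shared regions. With 5 kb around the start the median CpG ratio of promoters marked in all 4 was 0.794 against 0.801. Leaving out each library in turn gave 11506 to 12125 shared regions, 11372 to 11814 genes marked in all that remained, 8173 to 8427 genes marked in none, median widths of 1008 to 1072 bp and median fold enrichments of 5.44 to 6.02. Under the remaining alternatives for these results the counts were within 1.5 times, and the medians within the SD of the 4 libraries, of the values in the report. Against the share of all genes, each of the 46 lists kept its side when recurrent regions were kept, when recurrent stretches were taken by base, with 5 kb and without any 1 library. The exceptions were striatum (1 kb, lists of equal length, and known starts), calcium and sodium channels (either end of every gene), CA2 and CA3 pyramidal cells (known starts), and 11 lists with −log10 q of at least 5, among them excitatory neurons and immediate early genes. The largest fall in a list's share was 15 points at 1 kb (excitatory neurons), 16.7 with either end of every gene (Cajal-Retzius cells), 17.5 with known starts (cerebellum), 30 with lists of equal length (striatum) and 90.9 with −log10 q of at least 5 (immediate early genes). The largest rise was 25 points, with known starts (CA1 pyramidal cells). No paired analysis was possible because each group has 1 library. The lists hold no counts, so what depth limits could not be measured: a gene without a peak may carry the mark below the caller's threshold.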

Other observations

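Several families not described above were marked almost throughout. Counting symbols that share a stem of letters and have at least 20 genes, the highest shares marked in all 4 were 34 of 35 Vps genes (sorting of vesicles to lysosomes), 29 of 30 Tbc genes, 20 of 21 Nup genes (nuclear pore), 36 of 38 Cep genes (centrosome) and 28 of 30 Med genes (Mediator). Zinc finger genes named Zfp had 274 of 397 marked in all 4 and 91 in 1 to 3, and were found in 307, 303, 348 and 354 of 397 by library. Zfp267 had 9.64, 5.74, 9.17 and 8.95, with the heterozygote vehicle library the lowest. Replication-dependent histone genes had 58 of 65 marked in all 4, though they lie in clusters and have near-identical copies, and H1f4 and H2bc6 share a region.

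Of 94 potassium channel genes 58 were marked in all 4 (61.7%), against 51.8% of all protein-coding genes. Calcium and sodium channels had 24 of 43 (55.8%), near the share of all genes, and glutamate and GABA receptors 31 of 46 (67.4%). Kcna2 had 7.94, 4.14, 7.44 and 7.07, and Gabbr1, a subunit of the GABA-B receptor, had 6.53, 6.55, 9.41 and 6.55. Gabra3, Gabra6, Gabrp and Gabrq had no peak in any. Of 57 clustered protocadherin genes, which share downstream exons and have alternative first exons, 4 were marked in all 4, including Pcdhgc3 at 5.37, 4.46, 5.96 and 6.06 and Pcdhac2 at 5.13, 4.03, 8.25 and 5.47, while Pcdha1 and Pcdha10 were marked in none at their ends and hold a shared region inside. None of the 57 has a start in the promoter table, so each was assigned by either end.

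At the other end, 55 of 56 Krtap genes, 44 of 47 Pramel genes, 41 of 42 Defb genes and 38 of 40 Scgb genes had no peak in any of the 4 libraries. Gene models and clones without a family name made up 1423 (17.5%) of the 8134 unmarked genes. Of all 1888 such models and clones 75.4% were unmarked, against 37.2% of all protein-coding genes.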
